A study of Mus musculus with 6 samples.

Results

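The mitochondrial ribosome and its translation factors were examined in multipotent progenitors sorted from mouse bone marrow. Members were the array features that carry 1 gene symbol beginning with Mrpl or Mrps and a digit, plus the factor genes Gfm1, Gfm2, Tufm, Tsfm, Mtif2 and Mtif3. Where several features carried 1 gene, the one with the highest mean over the 6 arrays was taken. This gave 83 genes of 19938 named by single-symbol features: 48 named for the large subunit, 29 for the small subunit and 6 factors. The design set 3 Lxn-/- arrays against 3 WT arrays, each from its own pool of mice. Lxn-/- mice lack exons 2 to 4 of latexin and its protein, and WT mice have the intact gene and protein. Latexin inhibits carboxypeptidases. All mice were labelled as C57BL/6, female and 8 to 12 weeks old, and each pool came from 10 to 20 of them and held close to 100000 cells of the gate Lin-Sca1+c-Kit+Flt2+CD34+. The series title names long-term stem cells, while the sample labels name multipotent progenitors. In a sorted pool, fewer cells of a type and less RNA per cell cannot be told apart.

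Mitochondria keep a ribosome of their own, of bacterial descent, that makes the few proteins encoded by mitochondrial DNA, all of them core subunits of the respiratory chain and the ATP synthase. Its RNAs are mitochondrial, whereas every protein of both subunits and every translation factor is encoded in the nucleus, made in the cytosol and imported. Part of the proteins have bacterial relatives and part are found only in mitochondrial ribosomes. Blood stem cells and progenitors are known to depend on mitochondrial translation as they enter cycle and differentiate.

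Values below are log2 expression values normalised by RMA, and differences are Lxn-/- minus WT with their standard error (SE) from limma. The progenitor markers Kit, Cd34 and Flt3 were bright in all 6 arrays, at 11.48 to 12.19, 13.33 to 13.48 and 12.45 to 12.83 on the log2 scale. The gate in the labels names Flt2, not Flt3. Ly6a, the gene of Sca1, was also listed but had no feature with 1 gene symbol. Kit, Cd34 and Flt3 were all below every WT value in Lxn-/- array 1, where Kit read 11.48, against 12.05 to 12.19 in WT. The Lxn feature read 8.03, 8.53 and 8.61 in Lxn-/- arrays 1, 2 and 3, against 8.56, 8.70 and 8.58 in the WT arrays, and so did not check the genotype of an array. The exons read by its probes were not known here. Sex-linked genes went against the labels in part of the Lxn-/- group. Xist, the RNA that silences an X chromosome in female cells, was 6.86 and 5.85 in Lxn-/- arrays 1 and 3, against 13.17 in Lxn-/- array 2 and 13.13 to 13.23 in WT. The Y-linked gene Eif2s3y was 8.57 and 9.36 in Lxn-/- arrays 1 and 3, 3.83 in array 2, and 3.68 to 3.97 in WT. Results are therefore also given without Lxn-/- arrays 1 and 3.

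Nearly every gene of the mitochondrial ribosome had a higher mean in the Lxn-/- arrays, by a small amount. The mean was higher for 81 of 83 members, where 42.2% of all 23410 tested features were higher. The median log2 change was 0.21, a fold of 1.16, against -0.04 over all tested features. The quartiles of the members were 0.14 and 0.28, and the range ran from -0.15 for Mrps16 to 0.42 for Mrps27. None passed the test: 0 of 83 had an adjusted p under 0.05 in limma with Benjamini-Hochberg adjustment, as did 0% of all features, and the smallest adjusted p was 0.34. At an unadjusted p under 0.05, 30 members were higher, 36.1% of them against 5.06% of all features, and 0 were lower, against 9.23% of all features. The median SE of a member was 0.11. With separate pools as replicates, p-values measure the spread between pools.

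All 3 Lxn-/- values lay above all 3 WT values in 37 of 83 members, 44.6%, against 8.54% of tested features. The opposite order was found in 0 members, against 13% of tested features. The members were mid-level to bright, and bright features as a whole also read higher in Lxn-/- arrays. The median level was exceeded by 80 of 83 members, and the 11705 features above it had a median change of 0.07. Of these 11705, 69.3% were higher in mean, 15.8% were fully separated upward and 421 downward. At an unadjusted p under 0.05 in limma, 8.37% of them were higher, and 354 features were lower. Within the range of mean levels that the members span, 7.11 to 11.35, the 12899 tested features had a median change of 0.04. Of these 12899, 58.5% were higher in mean, 13.3% were fully separated upward and 1007 downward. Quantile normalisation of the tested features lowered the members' median to 0.13 and the number higher at an unadjusted p under 0.05 to 11, in a fit where 3.69% of all features were higher and their median was -0.01.

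**Figure D1:**
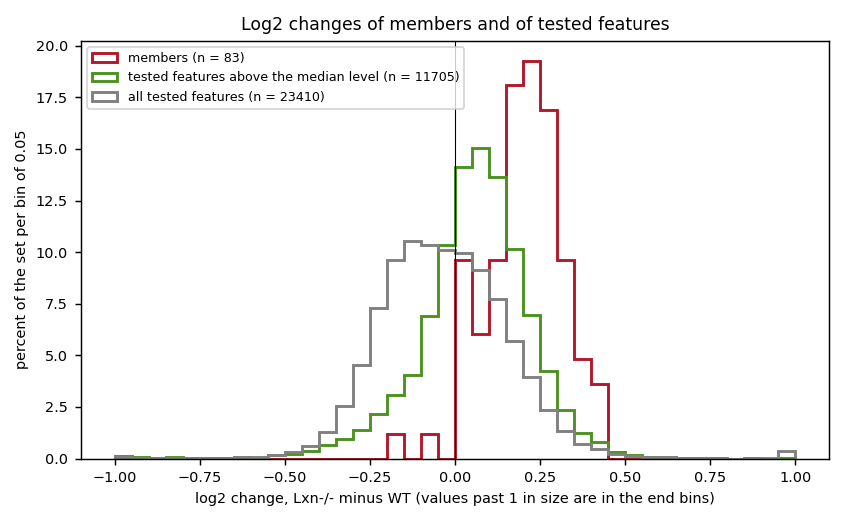
Share of each set (y axis, percent per bin) by log2 change, Lxn-/- minus WT (x axis), for the 83 members (red), the 11705 tested features above the median level (green) and all 23410 tested features (grey). The members centre on 0.21, the brighter features on 0.07 and all features on -0.04.

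The shift differed in size among the Lxn-/- arrays. Relative to the mean of the WT arrays, the median over the 83 members was 0.34, 0.12 and 0.16 in Lxn-/- arrays 1, 2 and 3, and -0.03, -0.04 and 0.08 in WT arrays 1, 2 and 3. Array 1 gave the highest Lxn-/- value for 62 members, array 3 for 14 and array 2 for 7. In array 1, 74 of 83 members exceeded all 3 WT values, against 25.4% of tested features. In array 2, which had Xist and Eif2s3y near their WT values, 44 of 83 members did so, against 27.4% of features. The count was 51 in array 3, against 28.2%. Of the 11705 features above the median level, 4281, 5470 and 5571 exceeded all 3 WT values in Lxn-/- arrays 1, 2 and 3. Their medians relative to WT were 0.03, 0.08 and 0.08. All 3 Lxn-/- medians of the members were above the highest WT median of the members, and array 2 by the smallest distance. With arrays 1 and 3 left out, only 1 Lxn-/- array remained, and the members' median was 0.125, against -0.024 over all features. Without array 1 alone the members' median was 0.145. In that fit 17 of 83 members were higher at an unadjusted p under 0.05, where 6.31% of all features were.

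**Figure D2:**
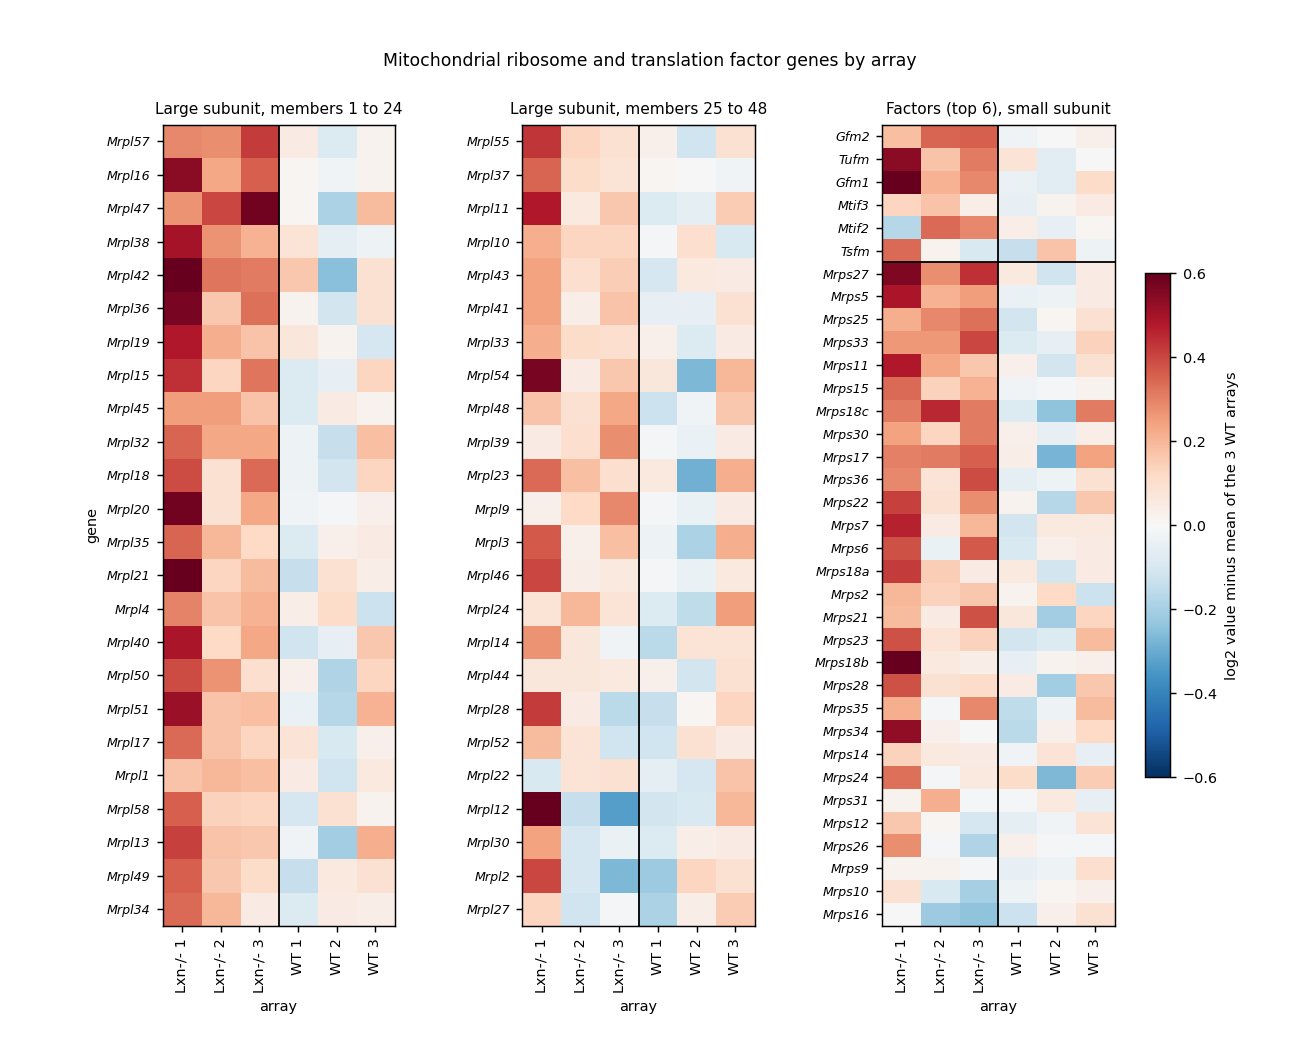
Log2 value of each of the 83 members (rows) in each array (columns) minus its mean over the 3 WT arrays, with colour from -0.6 (blue) to 0.6 (red) and larger differences at the end colours. Rows run down from the largest to the smallest moderated statistic within large subunit, factors and small subunit, and Lxn-/- array 1 is the reddest column, with blue cells in arrays 2 and 3 mostly at the foot of the blocks.

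Mast cell, erythroid and megakaryocyte markers had lower means in Lxn-/- arrays, with 0 past the adjusted threshold. The 6 mast cell and basophil markers had a median change of -0.52, with array medians relative to WT of -1.24, -0.26 and -0.21 in Lxn-/- arrays 1, 2 and 3 and -0.13 to 0.08 in WT. All 4 measured erythroid markers of 7 listed were lower in mean, at a median of -0.30, with Lxn-/- array medians of -0.39, -0.20 and -0.31 against -0.16 to 0.29 in WT. All 5 measured megakaryocyte markers of 6 were lower too, at -0.31. Over all 23410 tested features 13528 were lower in mean, as were 3588 of the 11705 above the median level. Epor, Pf4, Ppbp and Vwf had means under that level of 7.77 in both groups, while Car1, Itga2b and Gp9 had means above it. The 9 neutrophil markers had a median of 0.18, the 7 macrophage markers -0.27, the 6 measured B cell markers -0.12 and the 6 T and NK cell markers 0.03. The macrophage markers went both ways, with Csf1r at 0.50 (SE 0.14) and Cd68 at 0.32 (SE 0.12), both separate upward, and C1qb at -0.50 (SE 0.15) and Mrc1 at -0.40 (SE 0.16), both overlapping. Lxn-/- array 1 thus held both the highest median of the mitochondrial ribosome and the lowest of the mast cell markers. What part such cells have in the result was not tested.

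Among the factors, Gfm1, Tufm and Gfm2 were separate between the groups, while Tsfm and both initiation factors, Mtif2 and Mtif3, overlapped. Upward separation in 3 of the 6 (50%) stood against 8.54% of all tested features and 15.8% of those above the median level. All 6 had a higher mean in Lxn-/- arrays, against 42.2% and 69.3% of the same features. Gfm1, the translocase that moves the ribosome along the messenger, read 9.80, 9.31 and 9.39 in Lxn-/- arrays 1, 2 and 3, against 9.06, 9.03 and 9.21 in WT. The groups did not overlap, and array 1 was the highest. The difference was 0.40 (SE 0.13, 95% interval 0.09 to 0.70) with an adjusted p of 0.34 in limma. Without Lxn-/- array 1 it was 0.246, and without arrays 1 and 3 it was 0.205. In the GRCm38.p6 gene table Lxn lies inside Gfm1 on chromosome 3, on the opposite strand, and whether the array probes of Gfm1 touch the deleted segment was not known here. Of the 6 members on chromosome 3, Gfm1 and Mrpl47 had groups that did not overlap, while Mrpl9, Mrpl24, Mrps21 and Mrps28 overlapped, with changes of 0.14, 0.12, 0.21 and 0.20.

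Tufm, the elongation factor that brings aminoacyl-tRNA to the ribosome, had 10.71, 10.34 and 10.48 in Lxn-/- arrays, against 10.25, 10.10 and 10.17 in WT. All Lxn-/- values were above all WT values, with a difference of 0.34 (SE 0.11). Without Lxn-/- arrays 1 and 3 it was 0.167. A second Tufm feature gave 0.35. Tsfm, the exchange factor that recycles Tufm, read 9.95, 9.63 and 9.52 in Lxn-/- arrays, against 9.47, 9.78 and 9.58 in WT, and the groups overlapped, with a change of 0.09 (95% interval -0.21 to 0.39). Gfm2, which splits the ribosome for recycling, was 8.81, 8.98 and 8.99 in Lxn-/- arrays, against 8.61, 8.63 and 8.66 in WT. Here the groups did not overlap, and arrays 2 and 3, not array 1, were the highest (difference 0.29, SE 0.09).

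Mtif2, the GTPase that places the initiator tRNA, read 8.68, 9.19 and 9.14 in Lxn-/- arrays, against 8.89, 8.80 and 8.86 in WT. Lxn-/- array 1 was below and arrays 2 and 3 were above all WT values, unlike most members, which were highest in array 1 (change 0.15, SE 0.14). The Mtif2 difference was 0.313 without Lxn-/- array 1, 0.058 without array 2, 0.085 without array 3 and 0.341 without arrays 1 and 3. Mtif3, which readies the small subunit for initiation, overlapped between groups at 8.49, 8.53 and 8.40 in Lxn-/- arrays, against 8.31, 8.38 and 8.41 in WT (change 0.11, 95% interval -0.08 to 0.30, and 0.165 without Lxn-/- arrays 1 and 3). Over the 6 factors the median change was 0.22, and the factor median was 0.25, 0.19 and 0.29 in Lxn-/- arrays 1, 2 and 3, against -0.03 to 0.02 in WT. The smallest adjusted p among the 6 was 0.34, and a difference between elongation and initiation factors was not tested.

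**Figure D3:**
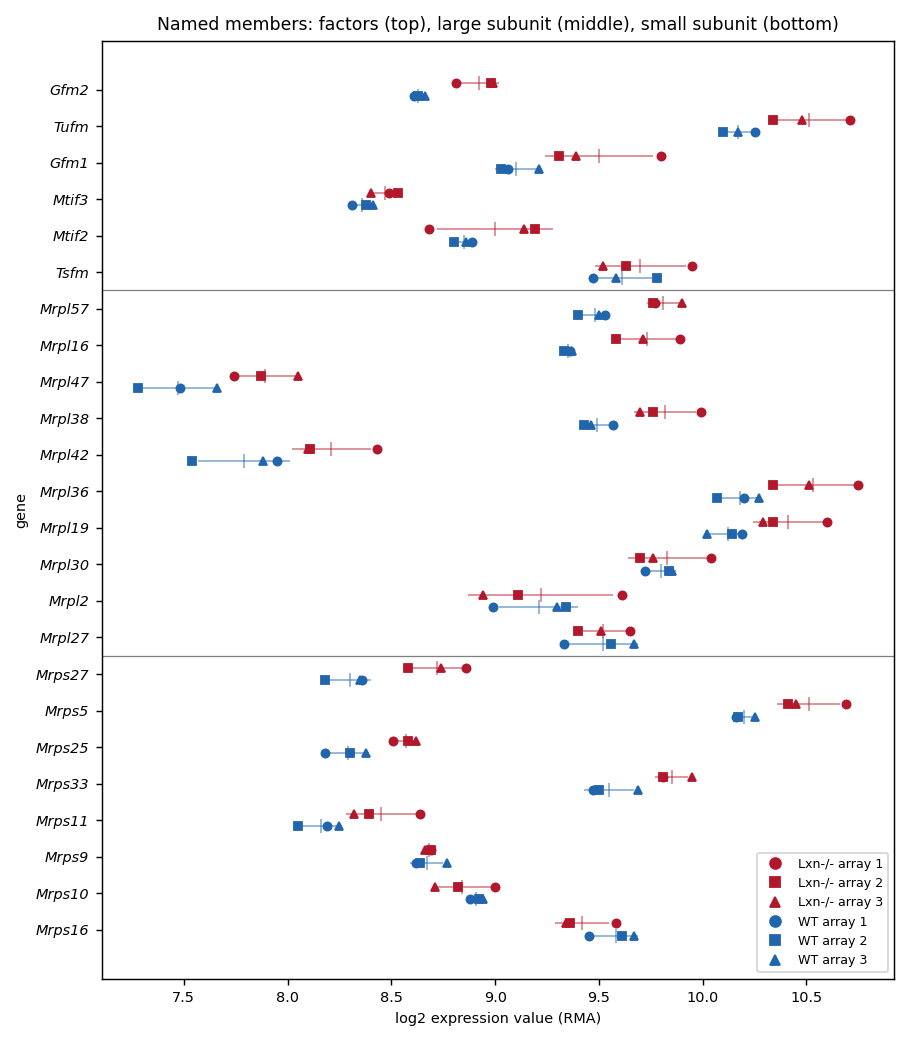
Log2 expression value (x axis) of each named member (y axis) in Lxn-/- arrays (red, upper line of each gene) and WT arrays (blue, lower line), with circles, squares and triangles for arrays 1, 2 and 3 and bars for mean ± SD (n = 3). The red and blue points are separate for Gfm1, Tufm, Gfm2 and for the upper 7 large and upper 5 small subunit genes, and overlap in the other 9.

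In the large subunit, all 48 members had a higher mean in Lxn-/- arrays, with a median change of 0.21 and a lowest value that rounds to 0. The groups were fully separated in 24 of them (50%), against 8.54% of all tested features and 15.8% of those above the median level. At an unadjusted p under 0.05, 17 were higher (35.4%), against 5.06% and 8.37%. Mrpl57, a small protein found only in mitochondrial ribosomes, had the largest statistic. It read 9.77, 9.76 and 9.90 in Lxn-/- arrays, against 9.53, 9.40 and 9.50 in WT, a difference of 0.33 (SE 0.09), and its Lxn-/- values were close together. Mrpl16, a bacterial-type protein near the site where peptide bonds form, was 9.89, 9.58 and 9.71 in Lxn-/- arrays, against 9.36, 9.33 and 9.37 in WT. Its WT values spanned far less than the gap to the lowest Lxn-/- value (change 0.38, SE 0.10). Mrpl47, the relative of a bacterial protein at the mouth of the peptide exit tunnel, had 7.74, 7.87 and 8.05 in Lxn-/- arrays, against 7.48, 7.28 and 7.66 in WT (change 0.41, SE 0.12). The groups were separate by a narrow gap, and its other feature, with a change of 0.17, did overlap.

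Mrpl42, which is specific to mitochondria, had the largest change of the large subunit, 0.42 (SE 0.14), at 8.43, 8.11 and 8.10 in Lxn-/- arrays, against 7.95, 7.54 and 7.88 in WT. Mrpl38, also specific to mitochondria, read 9.99, 9.76 and 9.70 in Lxn-/- arrays, against 9.57, 9.43 and 9.46 in WT (0.33, SE 0.10). Both were highest in Lxn-/- array 1 and separate in the other arrays as well. The genes of the bacterial-type proteins Mrpl36 and Mrpl19 differed by 0.35 (SE 0.12) and 0.29 (SE 0.11). Mrpl36 had 10.75, 10.34 and 10.51 in Lxn-/- arrays, against 10.20, 10.07 and 10.27 in WT, and Mrpl19 had 10.60, 10.34 and 10.29 in Lxn-/- arrays, against 10.19, 10.14 and 10.02 in WT. In both genes all Lxn-/- values lay above all WT values. Without Lxn-/- arrays 1 and 3 the difference was 0.164 for Mrpl36 and 0.225 for Mrpl16.

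At the other end of the large subunit stood Mrpl27, Mrpl2 and Mrpl30, bacterial-type proteins of which the first and second sit close to the peptide bond centre. Mrpl27 read 9.65, 9.40 and 9.51 in Lxn-/- arrays, against 9.33, 9.56 and 9.67 in WT, with a change of 0.00 (95% interval -0.26 to 0.26). Mrpl2 was 9.61, 9.11 and 8.94 in Lxn-/- arrays, against 8.99, 9.34 and 9.30 in WT (0.01, interval -0.39 to 0.40), so that array 1 was the highest of all 6 and array 3 the lowest. Mrpl30 gave 0.03 (interval -0.22 to 0.28). Mrpl12, the stalk protein that is also known to bind the mitochondrial RNA polymerase, was picked after its values were seen. It read 10.74 in Lxn-/- array 1 but 9.96 and 9.77 in arrays 2 and 3, against 9.99, 10.01 and 10.30 in WT, an SD of 0.52 that was the widest within the Lxn-/- group among the 83 members.

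The 29 members named for the small subunit include Mrps30, Mrps18a and Mrps36, which are set apart further below by their products. Of the 29, 27 had a higher mean, at a median of 0.21. That median was 0.131 without Lxn-/- array 1 and 0.079 without arrays 1 and 3. The groups were fully separated upward in 10 (34.5%), against 8.54% of all tested features and 15.8% of those above the median level. At an unadjusted p under 0.05, 10 were higher (34.5%), against 5.06% and 8.37%. Mrps27, a mitochondria-specific protein with RNA-binding repeats, had the largest statistic of all members. Its values were 8.86, 8.58 and 8.74 in Lxn-/- arrays, against 8.36, 8.18 and 8.35 in WT, a change of 0.42 (SE 0.10, 95% interval 0.19 to 0.66), or 1.34-fold. Every Lxn-/- value was above every WT value, and without Lxn-/- arrays 1 and 3 the difference was 0.279. Mrps5, a bacterial-type protein of the channel by which the messenger enters, read 10.69, 10.41 and 10.45 in Lxn-/- arrays, against 10.16, 10.17 and 10.25 in WT (0.32, SE 0.10), and its second feature gave the same change. Without Lxn-/- arrays 1 and 3 it was 0.209. Mrps25 had 8.51, 8.58 and 8.62 in Lxn-/- arrays, against 8.18, 8.30 and 8.38 in WT (0.28, SE 0.09). Mrps33 had 9.81, 9.81 and 9.95 in Lxn-/- arrays, against 9.47, 9.50 and 9.69 in WT (0.30, SE 0.10). For these mitochondria-specific proteins Lxn-/- array 3, not array 1, was the highest. Mrps11, of the platform, differed by 0.29 (SE 0.11), at 8.64, 8.39 and 8.32 in Lxn-/- arrays, against 8.19, 8.05 and 8.25 in WT.

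Mrps16 and Mrps10 were the 2 members with a lower mean. Mrps16 read 9.58, 9.36 and 9.34 in Lxn-/- arrays, against 9.45, 9.61 and 9.67 in WT, a change of -0.15 (95% interval -0.39 to 0.09), and Lxn-/- array 1 lay inside the WT range. Without that array the difference was -0.228. Mrps10, of the head of the subunit, had 9.0, 8.82 and 8.71 in Lxn-/- arrays, against 8.88, 8.92 and 8.94 in WT (-0.07, interval -0.29 to 0.15). Mrps9 was 8.69, 8.69 and 8.66 in Lxn-/- arrays, against 8.62, 8.64 and 8.77 in WT, a change of 0.00 (interval -0.19 to 0.20). All 3 have bacterial relatives, and all overlapped between groups.

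Median differences were close to each other by descent. The 30 bacterial-type large subunit genes had a median of 0.21 and the 20 measured mitochondria-specific ones of 21 listed also 0.21. In the small subunit the medians were 0.20 over 16 bacterial-type genes and 0.22 over 10 mitochondria-specific genes. Both genes with a lower mean were in the bacterial-type set of 16. Mrps30 and Mrps18a, counted with the large subunit only in this split by descent, carry small subunit names but are parts of the large one. Their differences were 0.23 (SE 0.09) and 0.21 (SE 0.11), and the groups were separate for Mrps30. Mrps36, whose product is now placed in a dehydrogenase complex, was kept by its name and differed by 0.25 (SE 0.10). The differences between these sets were not tested.

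Promoters are shown for Gfm1, which holds the Lxn locus, for the members with the largest statistic in each subunit, Mrpl57 and Mrps27, and for Mrps16, added after the values were seen because it had the lowest. They are RefSeq sequences of GRCm38.p6, from 250 bases before to 30 after the listed start, written 5′ to 3′ in the direction of the gene. Capitals mark matches to 3 motifs of factors known for nuclear genes of mitochondrial proteins: CGCANGCG for NRF1, CCGGAAG for ETS factors such as GABPA, and AANATGGC for YY1, each searched on both strands.
Gfm1 (chr3:67429865-67430144, plus strand): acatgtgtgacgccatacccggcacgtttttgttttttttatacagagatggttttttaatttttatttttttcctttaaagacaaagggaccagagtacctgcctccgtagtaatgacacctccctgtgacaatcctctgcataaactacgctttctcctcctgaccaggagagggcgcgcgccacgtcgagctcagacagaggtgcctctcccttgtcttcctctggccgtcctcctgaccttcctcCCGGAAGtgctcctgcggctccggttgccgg
Mrpl57 (chr14:57825989-57826268, plus strand): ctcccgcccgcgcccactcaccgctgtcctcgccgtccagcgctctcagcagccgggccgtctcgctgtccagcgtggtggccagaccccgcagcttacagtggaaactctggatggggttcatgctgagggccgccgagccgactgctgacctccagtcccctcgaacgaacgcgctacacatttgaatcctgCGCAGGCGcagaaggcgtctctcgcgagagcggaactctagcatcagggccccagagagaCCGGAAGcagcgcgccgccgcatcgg
Mrps27 (chr13:99344536-99344815, plus strand): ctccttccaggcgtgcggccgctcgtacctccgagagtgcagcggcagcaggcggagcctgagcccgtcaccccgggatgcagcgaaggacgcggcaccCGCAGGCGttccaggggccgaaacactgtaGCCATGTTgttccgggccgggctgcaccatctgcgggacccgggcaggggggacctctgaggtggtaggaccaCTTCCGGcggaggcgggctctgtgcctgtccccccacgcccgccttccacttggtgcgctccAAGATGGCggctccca
Mrps16 (chr14:20393461-20393740, minus strand): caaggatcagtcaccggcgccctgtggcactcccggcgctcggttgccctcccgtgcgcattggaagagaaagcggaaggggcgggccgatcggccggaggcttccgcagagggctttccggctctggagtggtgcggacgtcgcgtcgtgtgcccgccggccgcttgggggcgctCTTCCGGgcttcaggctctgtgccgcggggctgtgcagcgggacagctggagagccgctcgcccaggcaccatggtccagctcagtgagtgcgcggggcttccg

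The Gfm1 promoter held 1 ETS match, which begins at base -1 relative to the start. Mrpl57 held an NRF1 match that begins at base -56 and an ETS match that begins at base 5 after it. Mrps27 held all 3 kinds, with YY1 matches on both strands. Mrps16 held an ETS match as well, at base -74 on the opposite strand, and another from base 25 that runs past the printed end and stays in lower case. The table lists a second promoter for Mrps16, which is not shown. The table had 79 promoters for 73 of the 83 members, each of 300 bases. An ETS match was found in 35.4% of them, against 8.86% of all 32851 mouse promoters of the table. NRF1 matches were found in 26.6%, against 8.21%, and YY1 matches in 26.6%, against 6.05%. At least 1 of the motifs stood in 64.6% of the members' promoters, against 20.2% of all.

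The differences of members were also set against the motifs, with no test. The median difference was 0.21 in the 28 members with an ETS match and 0.21 in the 45 without. It was 0.16 in 21 members with an NRF1 match and 0.22 in 52 without, and 0.23 in 21 with a YY1 match and 0.18 in 52 without. These are letters in a window of sequence, and no binding was measured. Of the transcripts of the matching factors, Nrf1 differed by 0.09 (SE 0.08), Gabpa by 0.09 (SE 0.08) and Yy1 by 0.03 (SE 0.08). For Nrf1 and Gabpa all Lxn-/- values were above all WT values, as in 2 of the 9 regulators listed (22.2%). The share was 8.54% over all tested features and 15.8% over those above the median level. Of the 9 regulators listed, 0 were past an unadjusted p of 0.05, and the largest statistics were those of Pprc1 (0.24, SE 0.11) and Ppargc1a (-0.29, SE 0.15), coactivators of mitochondrial genes, and of Myc (0.14, SE 0.10).

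Other genes of mitochondrial gene expression were also higher in mean, to differing extents, with 0 passing after adjustment. Of the 4 measured ribosomal proteins with other names, Ptcd3 differed by 0.40 (SE 0.13), Dap3 by 0.20 (SE 0.09) and Chchd1 by 0.16 (SE 0.15). All 20 measured tRNA synthetase and charging genes of 21 were higher, at a median of 0.15, where 69.3% of features above the median level were higher. The groups were fully separated in 9 of the 20 (45%), against 8.54% of all tested features and 15.8% of those above the median level. The tyrosine enzyme gene Yars2 read 9.73, 9.38 and 9.38 in Lxn-/- arrays, against 9.26, 8.94 and 9.12 in WT (0.39, SE 0.13), and the arginine enzyme gene Rars2 differed by 0.32 (SE 0.10). Of 26 assembly and rRNA genes 22 were higher (median 0.12), with 11 separate upward (42.3%) and 1 downward. Over all tested features 13% were separate downward. The rRNA methyltransferase gene Mrm3 was 8.58, 8.39 and 8.48 in Lxn-/- arrays, against 8.12, 8.13 and 8.18 in WT (0.34, SE 0.09), and Fastkd2 and Noa1, both needed for ribosome assembly, differed by 0.29 (SE 0.08) and 0.27 (SE 0.09).

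All 21 genes of mitochondrial transcription and RNA handling that were measured, from 23 symbols listed, were higher in mean (median 0.19). The groups were separate upward in 11 (52.4%), against 8.54% of all tested features and 15.8% of those above the median level. Fastkd1 had 8.79, 8.57 and 8.88 in Lxn-/- arrays, against 8.32, 8.34 and 8.20 in WT, a change of 0.46 (SE 0.10), beside a highest value of 0.42 among the members. Lrpprc, which stabilises mitochondrial messengers, differed by 0.34 (SE 0.11) and Trmt10c, of tRNA processing, by 0.35 (SE 0.12). The 6 measured release, recycling and rescue genes had a median of 0.07, with the release factor gene Mtrf1l at 0.29 (SE 0.11), Guf1 at 0.23 (SE 0.15) and the recycling factor gene Mrrf at 0.05 (SE 0.09). Mrrf, which acts together with Gfm2, overlapped between groups.

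The 60 cytosolic ribosomal protein genes, the counterpart outside mitochondria, had a median change of 0.04, with 40 higher and 4 separate upward, 6.67% of them. The 77 nuclear genes of oxidative phosphorylation, whose complexes take up the products of this ribosome, had a median of 0.13, with 63 higher and 8 separate upward, 10.4% of them. Over all tested features 8.54% were separate upward, and 15.8% over those above the median level. Array medians of the oxidative phosphorylation genes were 0.28, 0.04 and 0.07 in Lxn-/- arrays 1, 2 and 3, against -0.05 to 0.10 in WT. Arrays 2 and 3 thus lay inside the WT range. The same held for cytosolic ribosomal proteins in all 3 Lxn-/- arrays, at 0.03, 0.05 and 0.00 against -0.08 to 0.12 in WT. The difference between these lists and the mitochondrial ribosome was not tested.

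**Figure D4:**
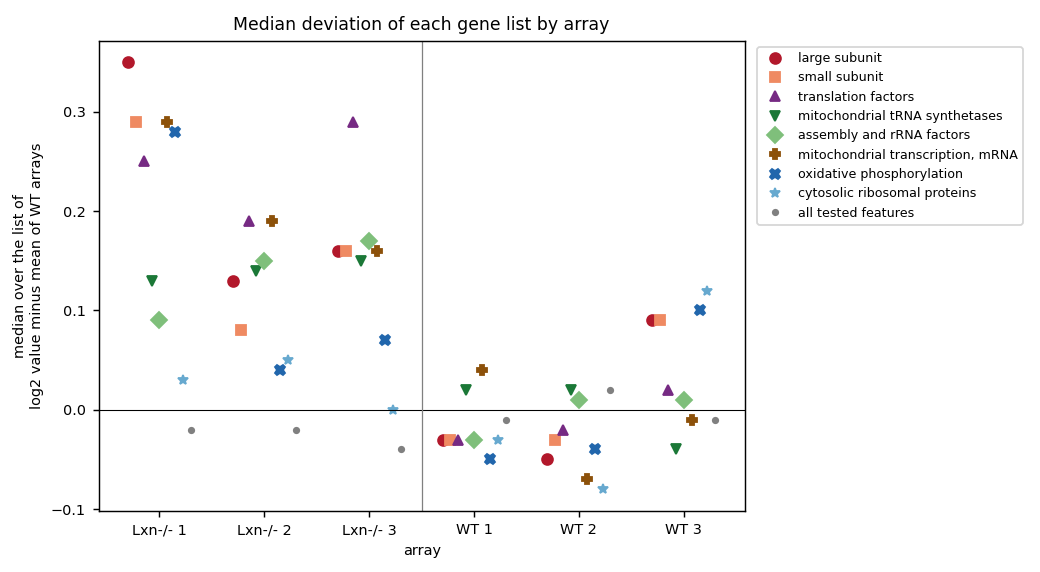
Median over each gene list of the log2 value minus its mean over the WT arrays (y axis), for each array (x axis). Large subunit, small subunit and factor genes are above all their WT medians in Lxn-/- arrays 1 and 3, and in array 2 the small subunit median of 0.08 falls just under that of WT array 3, 0.09.

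No member passed the adjusted threshold in any of the 16 alternative settings. Without Lxn-/- array 2, where 0.483% of all features passed as higher, 0 of 83 members did. The members' median stayed above 0 in each setting, between 0.125 and 0.267, and above the median of all features in the same fit.

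**Figure D5:**
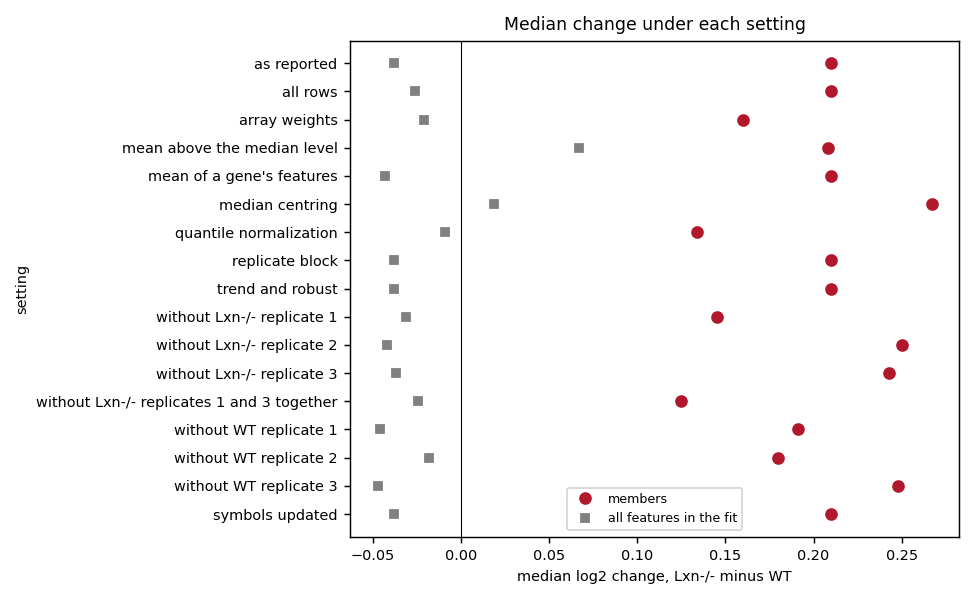
Median log2 change, Lxn-/- minus WT (x axis), of the members (red circles) and of all features in the fit (grey squares) under each setting (y axis). The members' median runs from 0.125 without Lxn-/- arrays 1 and 3 to 0.267 after median centring, and is right of the grey square in each row.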

How the data were processed

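Per the labels, 100 ng of RNA from each of 6 sorted progenitor pools was labelled with biotin for MoGene 1.0 ST arrays. The deposited table holds log2 values for 35557 features. Its normalisation was RMA, per the series text, and the submitters' processing notes also list Partek 6.0. Settings of RMA, the genome build of the probes and scan dates were not known here. RMA brings arrays towards a like distribution, so total RNA per cell is not measured. Over the tested features a difference remained. The SD was 2.047, 2.111 and 2.108 in Lxn-/- arrays 1, 2 and 3, against 1.987 to 2.029 in WT. The median was 7.73 to 7.757 in Lxn-/- arrays, against 7.777 to 7.842 in WT. The scale was taken as log2 because tested values run between 2.93 and 14.78.

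Gene symbols came from the platform annotation, and the 23410 features with at least 1 of them were tested with limma 3.58.1 in R 4.3.3 (lmFit, eBayes, two-sided, Benjamini-Hochberg over all of them). No filter on low values was used. The fit was tested on simulated data. Members, lists and tests were chosen with earlier results of these data known, so no list was tested as a set. Named were all factors, the 7 highest and 3 lowest large subunit genes and the 5 highest and 3 lowest small subunit genes by moderated statistic. For other pathway lists up to 3 genes of largest absolute statistic were named. Mrpl12, the Mrps18a, Mrps30 and Mrps36 values, Mrrf, the regulators Nrf1, Gabpa and Yy1 and members on chromosome 3 were added after values were seen. S6 kinase and other symbols that are no ribosomal protein were left out of the cytosolic list. The labels call the pools biological replicates, and 2 arrays shared at most 18 identical values. Figures were drawn with matplotlib 3.10.9. The number of arrays limits the precision.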

Additional observations from a re-analysis of the deposited data

How the results depend on the processing

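Among the 16 alternatives (replicate block, each array left out, Lxn-/- arrays 1 and 3 left out, quantile normalisation, median centring, brighter features, trend and robust variance, array weights, all rows, mean of a gene's features, updated symbols), the count of members past the adjusted threshold was 0 throughout. The number higher at an unadjusted p under 0.05, 30 as reported, was 11 after quantile normalisation (3.69% of all features). With 1 array left out it was 12 to 29. No such count is given without Lxn-/- arrays 1 and 3, because 1 Lxn-/- array remained there and only medians are reported. It was 17 without Lxn-/- array 1 (6.31%), 12 without WT array 1 (4.34%) and 13 without WT array 2 (2.53%). With median centring it was 44 (9.35% of all features). With the replicate number as a block it was 26 (5.08%) and the median 0.21. The labels link same-numbered arrays only by a number, and their deviations from group means correlated at 0.076, -0.008 and -0.006. With so few arrays this cannot show whether they shared a sort or scan day. Medians ran from 0.145 to 0.25 with 1 array left out. Without Lxn-/- arrays 1 and 3 the small subunit median was 0.079, where a single Lxn-/- array is assumed to vary like the others. The factor median was 0.277 with median centring and 0.157 after quantile normalisation. The cause of these shifts was not tested.

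Mrpl47 was below the level cut and has no value among brighter features. Of 24 named genes, 5 with changes near 0 turned sign. With array weights Mrpl2, Mrpl27, Mrpl30 and Mrps9 had -0.096, -0.041, -0.036 and -0.011. After quantile normalisation they had -0.083, -0.087, -0.055 and -0.054, and Tsfm -0.001. Without Lxn-/- arrays 1 and 3, Mrpl2, Mrpl27 and Mrpl30 had -0.099, -0.118 and -0.107. With 1 array left out the ranges were -0.189 to 0.147 for Mrpl2, -0.093 to 0.077 for Mrpl27, -0.077 to 0.096 for Mrpl30, -0.024 to 0.05 for Mrps9 and -0.035 to 0.177 for Tsfm.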

Other observations

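Among the members, 9 had 2 features each. Changes of both were alike for Tufm (0.34 and 0.35), Mrps5 (0.32 each), Mrps33 (0.30 and 0.29), Mrpl51 (0.29 and 0.30), Mrps36 (0.25 and 0.29) and Mrpl23 (0.21 each). They were further apart for Mrpl47 (0.41 and 0.17) and Mrpl41 (0.16 and 0.08), and both were near 0 for Mrpl27 (0.00 and 0.04). Mrpl53, a large subunit gene, shares its feature with Ccdc142 and was not counted as a member. That feature read 8.24, 8.30 and 8.58 in Lxn-/- arrays, against 8.23, 8.52 and 8.29 in WT, a change of 0.02 (SE 0.12).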
